A study of Mus musculus with 2 samples.

Results

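Shared intronic distal open sites are stretches of open chromatin that lay inside introns of protein-coding genes, away from promoters, and were called in both DNase-seq libraries of one mouse muscle. The members were chosen by the peak positions of both libraries. A peak of replicate 1 was kept if a peak of replicate 2 covered at least 50% of either of the pair, if it lay more than 1 kb from every protein-coding transcription start site (TSS), and if its midpoint fell in a protein-coding gene body but in no exon. The rule kept 2175 of the 19119 shared peaks; the stricter deposited lists held 114758 peaks in replicate 1 and 26804 in replicate 2, or 141562 in both. Of the other shared peaks, 12365 lay at promoters, 4116 between genes and 463 in exons away from promoters.

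The tissue was gastrocnemius, a calf muscle of the hindlimb, from female B6CASTF1/J mice at 10 days of age. B6CASTF1/J is a hybrid strain, the offspring of a C57BL/6J and a CAST/EiJ parent. All samples form 1 group, with no treatment in the labels, and its 2 libraries, called replicate 1 and replicate 2 here, were each made from a pool of 3 females. The labels say nothing more of how the pools relate. DNase-seq maps where the enzyme DNase I can cut nuclear DNA. With 1 group no condition could be compared, and the difference between the libraries is itself the replicate spread. Intervals in brackets are 95% Wilson intervals over sites and cover counting error only.

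Distal open sites in introns are a mixture of kinds. Enhancers are bound by transcription factors and act on promoters over a distance, silencers do the opposite, insulator and loop-anchor sites are bound by CTCF, a zinc-finger protein that blocks cohesin as it extrudes DNA, and some are unannotated start sites. In skeletal muscle, enhancers are known to carry E-boxes for the myogenic factors, of which MyoD and myogenin are the best known, and motifs for MEF2, TEAD and SRF factors. CTCF sites tend to be open in many tissues, whereas enhancers tend to be open in few. The muscle also holds endothelial cells, macrophages, Schwann cells, tendon and connective tissue cells, and in such bulk tissue fewer cells with an open site and less opening per cell cannot be told apart.

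The tall sites with a CTCF word are shown because that word was the most common feature of the members. The CTCF motif used here is a 12-letter pattern that needs ambiguity letters and is given by its name alone. The best-ranked site that held it and the next 3, the latter chosen after their values were seen, read as follows on the plus strand of mm10 (RefSeq sequence of GRCm38.p6), with the match to the CTCF motif in capitals.
3110082I17Rik, chr5:139398551-139398650: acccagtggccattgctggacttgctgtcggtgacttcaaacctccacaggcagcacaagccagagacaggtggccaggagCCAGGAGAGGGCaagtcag
Camta1, chr4:151141651-151141750: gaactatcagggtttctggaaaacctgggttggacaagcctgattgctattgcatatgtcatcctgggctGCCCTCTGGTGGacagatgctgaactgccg
Nuak1, chr10:84438181-84438280: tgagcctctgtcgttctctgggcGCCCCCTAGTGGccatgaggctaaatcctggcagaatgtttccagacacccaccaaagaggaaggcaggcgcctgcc
Txnrd2, chr16:18443621-18443720: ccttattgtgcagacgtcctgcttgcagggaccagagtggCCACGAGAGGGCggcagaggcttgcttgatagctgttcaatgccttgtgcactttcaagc

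The word in 3110082I17Rik, in intron 2 of 3, lay under a footprint, a stretch within an open site protected from cutting, over 11 of its 12 bases in replicate 1 and 9 in replicate 2. The words in Camta1 (a calmodulin-binding transcription activator gene), Nuak1 (a kinase gene) and Txnrd2 (mitochondrial thioredoxin reductase) lay under footprints over all 12 bases in both. Peak heights were 18.5 and 3.86 for the 3110082I17Rik site in replicates 1 and 2, and 14.8 and 6.88 for the Camta1 site. They were 17.0 and 3.19 for the Nuak1 site and 10.6 and 5.92 for the Txnrd2 site. Height is the deposited signal at the peak, normalised to depth by the authors. All 4 sites were taller in replicate 1, and the Camta1 and Txnrd2 words read from the opposite strands of each other.

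The libraries stood apart in the number of peaks, and a member needs a peak in both. Below 100 steps, peak heights moved in steps of 0.00597 in replicate 1 and of 0.0107 in replicate 2, with a tolerance of 0.05 step. On a common scale replicate 1 would then be 1.80 times as deep. Of the intronic distal peaks, 6.08% (5.83 to 6.33%) of the 35801 in replicate 1 were shared, against 66.4% (64.7 to 68.0%) of the 3227 in replicate 2. Intergenic distal peaks were shared more often in both libraries, at 9.40% and 74.2%. Promoter peaks were shared at 41.4% and 70.3%. To check the labelled tissue, promoter peaks of its marker lists were counted: a promoter peak was shared at 9 of 15 muscle metabolism genes, Ckm (muscle creatine kinase) among them, and at 8 of 30 sarcomere genes, without Acta1, against 1 of 15 hepatocyte genes, 6 of 15 neuron genes, 13 of 15 housekeeping genes and 45.1% of all protein-coding genes. Excitation-contraction coupling and neuromuscular junction genes had it at 5 of 15 each, below the share of all genes.

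CTCF words marked the members far above their surroundings. A match lay in the central 150 bp of 794 sites, 36.5% (34.5 to 38.6%), against 0.989% of windows 1 kb to each side and 0.627% (0.577 to 0.681%) of 88362 windows of 150 bp set every 10 kb along distal introns, called the grid below. Shared intergenic distal sites held one at 32.2% (30.8 to 33.6%), so the intronic sites did not stand alone in this. Intronic distal peaks of replicate 1 that were not shared held one at 7.73% (7.45 to 8.02%), and the 1085 unshared ones of replicate 2 at 0.829% (0.437 to 1.57%), whose interval includes the grid value.

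The 811 CTCF matches in the members were also under footprints, which the rule did not use, though the footprints come from the same libraries. In replicate 1 97.9% (96.7 to 98.7%) of the matches, and in replicate 2 90.6% (88.4 to 92.4%), had at least 50% of their bases in a footprint, while footprints covered 38.6% and 20.6% of all bases of the central windows. Both libraries had a footprint over 732 matches, and neither had one over 14. The footprints were wide, with a median of 33.0 bp in replicate 1 and 28.0 bp in replicate 2, against 11 and 9 bp for all footprints of these libraries. Matches lay near the midpoint of the peak: 83.7% were within 25 bp of it, a stretch that makes up 33.3% of the window. A match must lie whole in the window, so an even spread of matches would give somewhat more than that. The match read along the strand of the host gene in 44.8% (41.4 to 48.2%), slightly fewer than on the other strand.

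**Figure D1:**
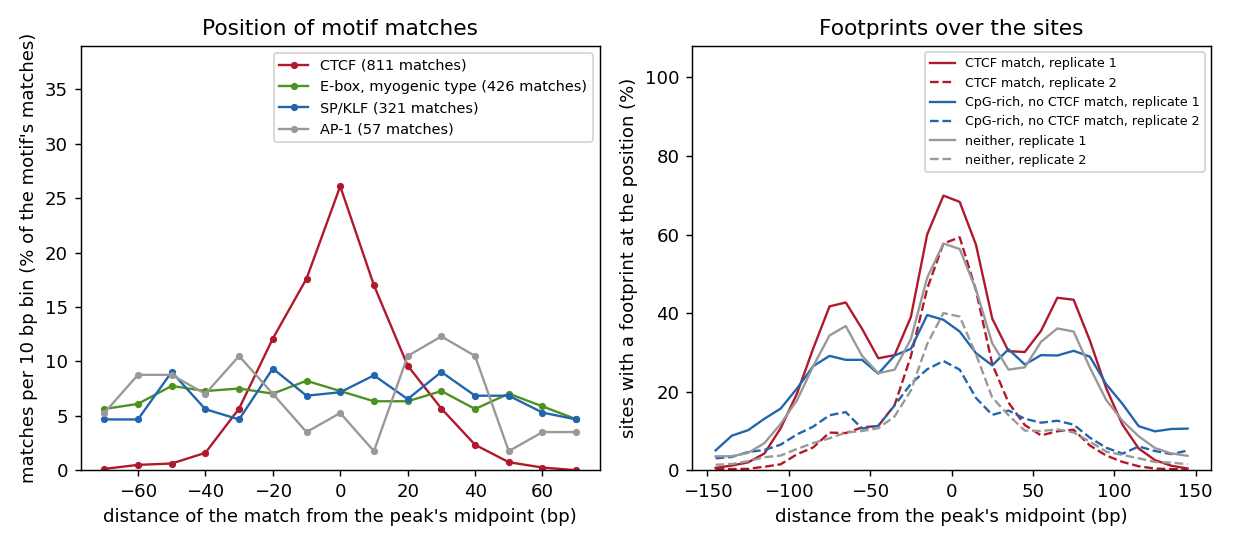
Left, the share of each motif's matches per 10 bp bin (y axis, %) against distance from the midpoint of the peak (x axis, bp) in the shared intronic distal sites; CTCF matches peak at 26.1% in the central bin, and the E-box, SP/KLF and AP-1 matches stay at 12.3% or below in every bin. Right, the share of sites with a footprint at each distance, by group of sites and library; in the bin from -10 to 0 bp the sites with a CTCF match reach 69.9% in replicate 1 and 57.7% in replicate 2.

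In the profile of footprints around the midpoint, sites with a CTCF match had a central maximum. It was flanked by a shoulder on either side in replicate 1. In replicate 1 the shoulder stood at 43.9% of sites 60 to 70 bp from the midpoint, and the sites with neither a CTCF match nor a CpG-rich centre had one at 36.1%. In replicate 2 the values at that distance were 9.92% and 10.4%, and no clear shoulder stood out. Footprints were fewer in replicate 2, at 115528 against 468215 in the whole lists.

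The matches comprised 73 different words of 12 bases. CCAGCAGAGGGC was the most frequent with 79 matches (9.74% of the 811), followed by CCACCAGGGGGC with 74, CCAGCAGGGGGC with 59 and CCAGCAGGTGGC with 58. Each of these was under footprints of both libraries at nearly all of its matches: 73, 71, 57 and 55. CCAGAAGAGGGC behaved differently. It made up 328 (58.8%) of the 558 matches in the grid and 12% of those in unshared peaks of replicate 1, but 47 (5.80%) of those in the members, and 43 of these 47 were under footprints of both.

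Many other members were near the CTCF pattern. A search that allowed 1 mismatch, chosen after the values were seen, found such a word in 577 of the 1189 sites that had no exact match and no CpG-rich centre, 48.5% (45.7 to 51.4%), against 8.69% of flanks and 4.77% of grid windows without an exact match. Unshared peaks of replicate 1 with no exact match held one at 18.2% (17.7 to 18.6%) and shared intergenic sites at 42.6% (40.8 to 44.5%). Of the 681 words in these sites, 74.6% lay within 25 bp of the midpoint, and 503 were under footprints of both libraries. In the flanks 8.83% of such words were under a footprint in replicate 1 and 3.58% in replicate 2. Together with the exact matches, 1429 sites, 65.7% (63.7 to 67.7%), held a CTCF word with at most 1 mismatch. The site of Vps37c, an ESCRT-I subunit gene, had the best sum of height ranks of all members, and the site of Casq1, the calcium-storing protein of the sarcoplasmic reticulum, was the best-ranked member among the genes of excitation-contraction coupling. Both held such a word, marked in capitals on the plus strand of mm10.
Vps37c, chr19:10709516-10709615: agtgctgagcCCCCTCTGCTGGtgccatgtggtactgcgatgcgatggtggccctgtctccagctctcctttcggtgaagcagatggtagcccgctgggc
Casq1, chr1:172217281-172217380: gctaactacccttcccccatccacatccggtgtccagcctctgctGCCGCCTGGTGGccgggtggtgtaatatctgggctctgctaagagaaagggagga

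The Vps37c site measured 31.9 in replicate 1 and 5.27 in replicate 2, and the Casq1 site measured 5.68 and 2.51. In both sites all 12 bases of the word were under footprints in both libraries. The word lay 1 bp from the midpoint in Casq1, in intron 2 of 10, and 59 bp from it in Vps37c, in intron 2 of 4.

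Sharing rose with height, and at a given height it was greater for peaks with a CTCF match. Since the rule itself required a peak in replicate 2, sharing is a description of the choice, with no test. Of the intronic distal peaks of replicate 1, 23.4% (22.0 to 24.9%) of the 3393 with a match were shared, against 4.26% (4.05 to 4.49%) of the 32408 without. With all replicate 1 peaks divided by height into 10 equal classes, class 10 being the tallest, in class 1 the shares were 0.610% and 1.14%, which did not differ beyond their intervals. In class 5 they were 7.91% (5.53 to 11.2%) and 2.45% (2.01 to 2.99%), and in class 9 65.6% (61.3 to 69.6%) and 13.2% (11.9 to 14.5%). In class 10 they were 76.3% (67.8 to 83.0%) and 18.7% (16.7 to 20.9%).

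**Figure D2:**
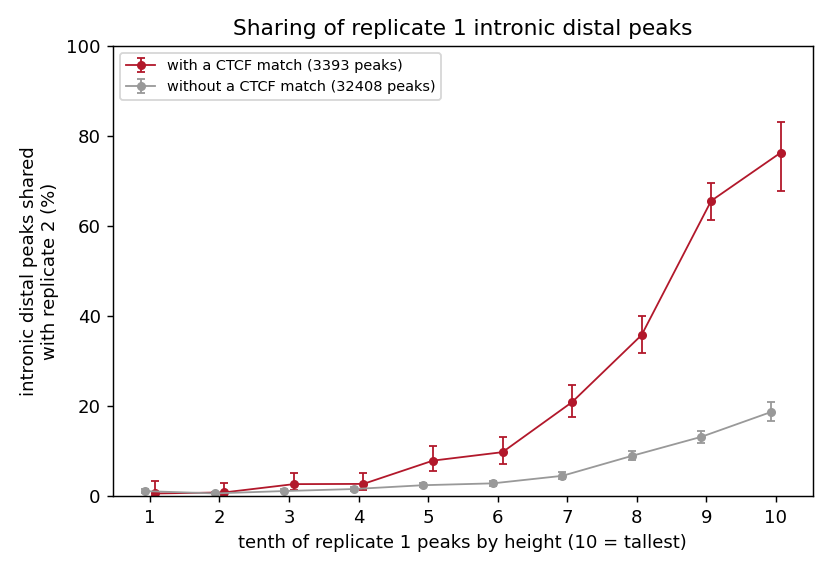
Share of intronic distal peaks of replicate 1 that were shared with replicate 2 (y axis, %, with 95% Wilson intervals) by height class of all replicate 1 peaks (x axis, 10 is the tallest), for peaks with and without a CTCF match. The intervals do not overlap from class 5 on, and the lines reach 76.3% and 18.7% in the tallest.

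Some motifs of promoters, SP/KLF, NRF1 and CRE, also went with sharing, here without regard to height. SP/KLF words (GGGCGG, bound by SP and KLF factors) marked 2099 peaks of which 12.1% (10.8 to 13.6%) were shared, against 5.70% of the peaks without. NRF1 words, given by name, which a factor of mitochondrial and growth gene promoters binds, marked 52 peaks, of which 11 were shared, 21.2% (12.2 to 34.0%), and CRE words (TGACGTCA, bound by CREB and ATF factors) marked 85, of which 13 were shared, 15.3% (9.16 to 24.4%). The E-box CAGATG went the other way: 3.73% (3.35 to 4.14%) of the 9018 peaks with it were shared, against 6.87% (6.57 to 7.18%) without. The E-box CAGCTG had 5.74% (5.20 to 6.33%) against 6.15% (5.88 to 6.43%), within the intervals. Other promoter motifs did not go beyond their intervals. NF-Y words had 7.34% (5.72 to 9.37%) against 6.05%, and ETS words (CCGGAAG) 7.43% (5.04 to 10.8%) against 6.06%.

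**Figure D3:**
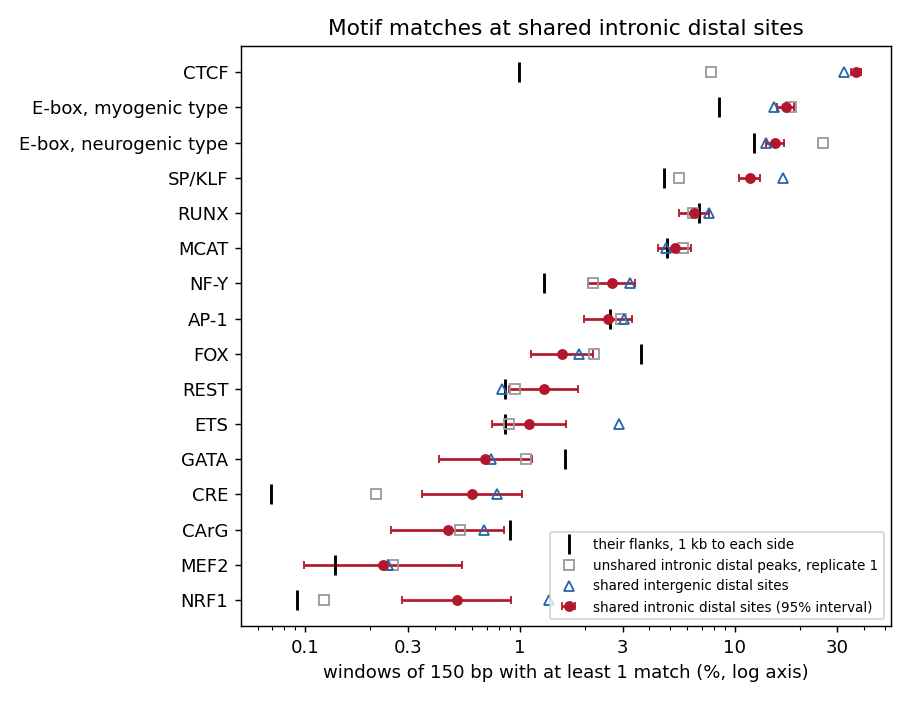
Windows of 150 bp with at least 1 match (x axis, %, log scale) for 16 motifs (y axis) in the shared intronic distal sites (red, 95% Wilson intervals), their flanks, unshared peaks of replicate 1 and shared intergenic distal sites. The myogenic type is CAGCTG and the neurogenic type CAGATG; CTCF lies at 36.5% in the sites against 0.989% in the flanks, and AP-1 at 2.57% against 2.62%.

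Of the 22 motifs searched on both strands, each counted on its own even where matches overlapped, the E-box CAGCTG, the word of MyoD and other bHLH factors, was the most frequent after CTCF. It lay in 375 sites, 17.2% (15.7 to 18.9%), against 8.39% of flanks and 6.04% of the grid, but 18.3% (17.9 to 18.7%) of unshared peaks of replicate 1. CAGATG lay in 336 sites, 15.4% (14.0 to 17.0%), closer to its flanks at 12.2% and the grid at 11.6%, and lower than in unshared peaks at 25.8% (25.4 to 26.3%). CAGCTG words were spread over the window, with 36.6% of the 426 matches under a footprint in replicate 1, near the 38.6% of all bases; for CAGATG it was 49.0% (43.9 to 54.2%). SP/KLF words lay in 254 sites, 11.7% (10.4 to 13.1%), against 4.69% of flanks, 1.39% of the grid and 16.7% of intergenic sites.

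The myogenic words other than the E-box were rare or near their flanks. MEF2 words, given by name, lay in 5 sites, 0.230% (0.0982 to 0.537%), against 0.138% of flanks, within the interval, and MCAT words for TEAD factors (CATTCCA or CATTCCT) in 114, 5.24% (4.38 to 6.26%), against 4.85% of flanks. CArG words, bound by SRF and given by name, lay in 10 sites, 0.460% (0.250 to 0.844%), against 0.897% of flanks. The AP-1 word of Fos and Jun (TGACTCA or TGAGTCA) lay in 56 sites, 2.57% (1.99 to 3.33%), against 2.62% of flanks and 2.54% of the grid, and 19.3% of its 57 matches were under a footprint in replicate 1. Forkhead words (TATTTAC or TGTTTAC) lay in 34 sites, 1.56%, against 3.66% of flanks, and GATA words (AGATAAG) in 15, 0.690%, against 1.61%. RUNX words (TGNGGTN, with a pyrimidine at each N) lay in 140 sites, 6.44% (5.48 to 7.55%), against 6.83% of flanks. In the grid MEF2 words lay in 0.309% of windows, MCAT in 5.58%, CArG in 0.781%, forkhead in 4.97%, GATA in 2.17%, RUNX in 5.92%, NF-Y in 1.59%, CRE in 0.0928% and NRF1 in 0.0328%. The best-ranked site with the AP-1, MEF2 and E-box CAGCTG words is printed for each, to show how they sit in the members, with the motif in capitals on the plus strand of mm10.
Cdkn1a, chr17:29095501-29095600: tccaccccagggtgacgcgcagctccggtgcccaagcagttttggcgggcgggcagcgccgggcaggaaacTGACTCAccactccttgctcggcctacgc
Cacna2d4, chr6:119348391-119348490: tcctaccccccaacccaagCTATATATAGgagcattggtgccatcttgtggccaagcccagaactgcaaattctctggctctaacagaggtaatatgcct
Mid1, chrX:169998151-169998250: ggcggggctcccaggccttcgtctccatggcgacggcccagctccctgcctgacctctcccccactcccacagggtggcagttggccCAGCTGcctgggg

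The AP-1 word in the first intron of Cdkn1a, the cell-cycle inhibitor p21, was under no footprint in either library, although the peak held 6 footprints in replicate 1 and 5 in replicate 2 and measured 12.8 and 3.86. The MEF2 word in intron 35 of 37 of Cacna2d4, a calcium channel subunit gene, had 4 of its 10 bases in footprints in each library, and its site measured 6.00 and 2.12. The E-box in Mid1, an X-linked gene, was under footprints over all 6 bases in both libraries, and its site measured 58.2 and 4.28. The 32 bases at the centre of the Mid1 site occur 8 times in the genome, so reads there may come from several places.

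E-box CAGCTG words were most frequent per site in the members with neither a CTCF word nor a CpG-rich centre. The sites were divided, after the values were seen, into 1429 with a CTCF word of at most 1 mismatch, 134 others with a CpG-rich centre (GC of at least 50% and an observed to expected CpG ratio of at least 0.6), and the remaining 612. The word lay in 27.5% (24.1 to 31.1%) of the 612, in 13.9% (12.2 to 15.7%) of the 1429 and in 6.72% (3.57 to 12.3%) of the 134. The flanks of the 3 groups held it at 7.52%, 8.85% and 7.46%. By count, more of the sites with the word were in the CTCF group, 198 against 168 of the 612 and 9 of the 134. SP/KLF words, which themselves hold a CpG, were most frequent per site in the CpG-rich group, at 39.6% (31.7 to 48%), against 12.7% (10.3 to 15.6%) of the 612 and 8.61% (7.26 to 10.2%) of the 1429, although the CpG-rich group held only 53 of the 254 sites with the word. Median heights of the 612 were 2.37 in replicate 1 and 1.2 in replicate 2, lower than the 3.10 and 1.49 of the 1429. The heights of the 2 libraries followed each other less in them, with a Spearman correlation across sites of 0.36 against 0.56. Of the 50 members with the best sum of height ranks, 22 were in the group with a CTCF word, 13 in the CpG-rich group and 15 in the remainder. These groups made up 65.7%, 6.16% and 28.1% of all members, so the CTCF group was under its share there and the CpG-rich group over it.

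CpG-rich members lay near starts. Using the exact CTCF match, the CpG-rich sites without one (192) had a median distance of 3342 bp to the nearest protein-coding TSS, against 11087 bp for the 794 with a CTCF match and 11306 bp for the remaining 1189. They lay in the first intron in 51.9% (44.2 to 59.6%), against 17.2% (14.6 to 20.2%) of the CTCF group and 28.0% (25.4 to 30.8%) of the remainder. A start of a RefSeq transcript lay within 1 kb of 23.4% (18 to 29.9%) of them, against 4.66% and 6.31% of the others, a check made after the values were seen. NF-Y words, built around CCAAT and another promoter motif, lay in 6.77% (4 to 11.2%) against 1.13% (0.597 to 2.14%) of the CTCF group. Of all members 11.2% (9.92 to 12.6%) were CpG-rich, against 81.2% of shared promoter sites, 25.5% of shared intergenic sites, 2.95% of unshared intronic peaks of replicate 1 and 0.637% of the grid.

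**Figure D4:**
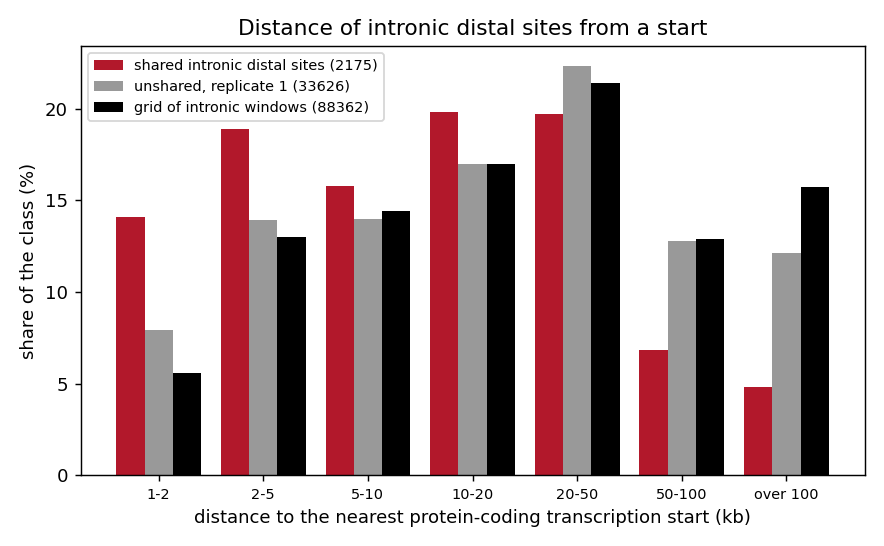
Share of each class (y axis, %) by distance to the nearest protein-coding transcription start (x axis, kb) for the 2175 sites, the unshared intronic distal peaks of replicate 1 and the grid. The sites hold 14.1% at 1 to 2 kb against 7.95% and 5.60%, and 4.83% beyond 100 kb against 12.1% and 15.7%.

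Members as a whole lay nearer to starts than the grid over distal introns of all protein-coding genes. The median distance was 10364 bp, with quartiles of 3476 and 26152 bp. Unshared intronic distal peaks of replicate 2 lay nearer still, at a median of 6392 bp, and those of replicate 1 farther, at 17909 bp. Of the members 14.1% lay 1 to 2 kb from a TSS, against 7.95% of unshared peaks of replicate 1 and 5.60% of the grid. Beyond 100 kb lay 4.83%, against 12.1% and 15.7%. CTCF matches were less common close to starts, at 25.4% (20.9 to 30.6%) of members at 1 to 2 kb and 43.1% (38 to 48.4%) at 5 to 10 kb, and SP/KLF words fell from 23.5% (19.1 to 28.5%) to 5.37% (2.75 to 10.2%) at 50 to 100 kb. The farthest members were in Lsamp, 754506 bp from a TSS, in Gpc5 at 738835 bp and in Pcdh9 at 670668 bp, genes of a neural adhesion protein, a glypican and a protocadherin. The Lsamp and Gpc5 sites held CTCF matches, and the Pcdh9 window was masked as repeat over its whole length.

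Of the 1925 members in an intron of the main transcript of their gene, 501 were in the first intron, 26.0% (24.1 to 28.0%), against 25.3% of the grid and 30.5% (30 to 31%) of unshared peaks of replicate 1. The member interval includes the grid value, but this turned on the settings: the share was 30.4% (29.1 to 31.7%) with the longer deposited lists and 22.1% (20.2 to 24.2%) with a limit of 2 kb from a TSS, where the grid was not recomputed. The central window was masked as repeat over at least 50% of its length in 53 members, 2.44% (1.87 to 3.17%), against 23.3% of the grid.

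The lowest overlap inside was 50% and the highest outside 49.4%; the 40 members overlapped by 50 to 60% had a median height in replicate 1 of 2.63, the 52 intronic distal peaks overlapped by 40 to 50% one of 2.02, and all 153 overlapped by less than the limit one of 1.61. The member nearest to a TSS was at 1002 bp and the nearest intronic shared peak outside at 997 bp. The 95 members at 1000 to 1200 bp had a median of 2.45, and the 149 shared intronic peaks at 800 to 1000 bp 1.81.

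Heights of the members ranged from 0.119 to 58.2 in replicate 1 with a median of 2.95, and from 0.161 to 66.9 in replicate 2 with a median of 1.43. Replicate 1 was taller at 1847 members (84.9%) and replicate 2 at 328, and the median log2 ratio of replicate 2 over replicate 1 was -0.99. Members more than 4-fold taller numbered 282 in replicate 1 and 7 in replicate 2. Across the 2175 members heights had a Spearman correlation of 0.49, against 0.52 over shared intergenic, 0.56 over shared exonic and 0.63 over shared promoter sites; sites share their libraries and are not replicates. Of the members, 1184 (54.4%) were among the 26804 tallest peaks of replicate 1, a number equal to the length of the replicate 2 list.

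**Figure D5:**
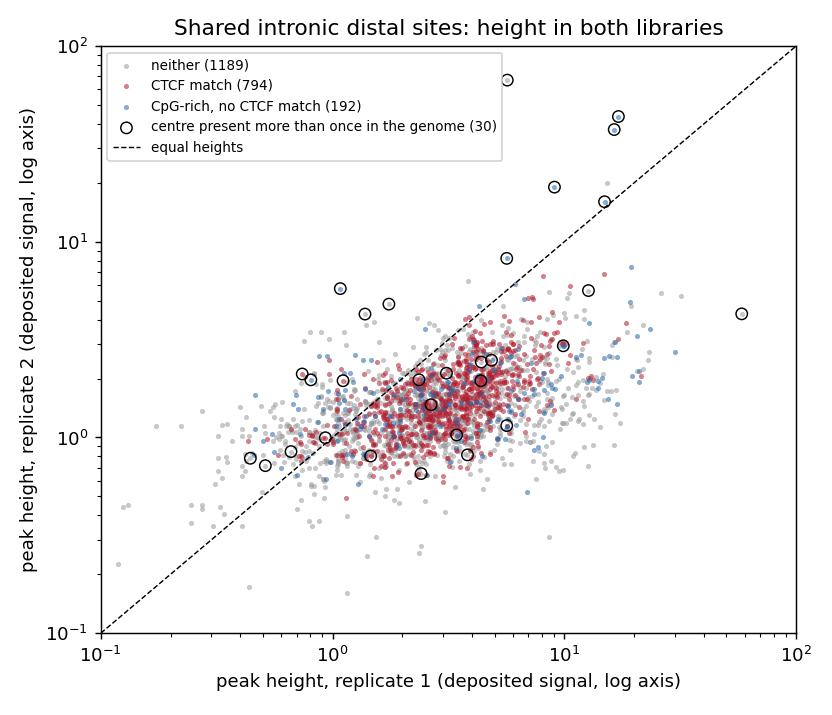
Height of each of the 2175 sites in replicate 1 (x axis) and replicate 2 (y axis), deposited signal, both on log axes, by group, with the 30 sites whose central 32 bases occur more than once in the genome ringed. Most points lie under the dashed line of equal heights, 1847 of 2175, and the tallest ringed points above it reach 66.9 in replicate 2.

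Of the 328 members taller in replicate 2, 312 were single-copy, but replicate 2 was taller more often at multi-copy members. The 32 bases at the centre occurred more than once in the genome in 30 members, 1.38% (0.968 to 1.96%), a count made after the values were seen. Single-copy means only that these exact bases occur once on the assembled chromosomes. Near copies and the rest of the peak were not counted, so it does not show that reads were uniquely placed. The 10 members with the best sum of height ranks were single-copy with 3 exceptions. Among them, Mxi1, a MAX-binding repressor gene, measured 19.4 and 7.47, Atoh8, a bHLH factor gene, 19.4 and 4.70, and Bahcc1 21.9 and 3.76 in replicates 1 and 2. Replicate 2 was taller at 16 of the 30 multi-copy members, against 312 (14.5%) of the 2145 single-copy members, and the median log2 ratio was 0.10 against -0.99. Of the 10 members tallest in replicate 2, 6 were multi-copy: those in Gm10722 (66.9 in replicate 2 and 5.67 in replicate 1), Il31ra (43.6 and 17.1), Zc3h7a (37.4 and 16.4), Gphn (19.0 and 9.06) and 2 in Jarid2 (16.0 and 14.9, 8.22 and 5.64). Of the 10 tallest in replicate 1, 1 was multi-copy, the Mid1 site described above. How such reads were placed is not given in the sources used here, and their part in the difference between the libraries was not tested.

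Sfi1, a centrosome gene, held 9 members, and all 9 were taller in replicate 2. Their heights were 0.728 to 1.40 in replicate 1 and 1.89 to 3.75 in replicate 2, with no overlap between the libraries. The central bases of 1 of the 9 were multi-copy. The central window was masked as repeat over 63.3%, 66.0%, 85.3% and 100% of its length in some Sfi1 members, and under 50% in the rest. Of all members, 2.44% were masked over at least 50%. The part of repeats in the greater replicate 2 heights at Sfi1 was not tested. Nfic, a nuclear factor I gene, also held 9, at 0.352 to 14.7 in replicate 1 and 0.675 to 4.02 in replicate 2, and 6 of the 9 were taller in replicate 1. Of these, 7 lay within 12.9 kb, chr10:81416941-81429880, the longest run of members with gaps under 5 kb. The Nfic members held 5 SP/KLF words, 2 CAGCTG and 3 CAGATG E-boxes, and no exact CTCF match, counting sites; 2 of them overlap each other in the deposited list.

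Members were spread thinly over genes. Of 21938 protein-coding genes 1691 held at least 1 (7.71%), and 1348 of these (79.7%) held exactly 1, 240 held 2, 66 held 3, 23 held 4 and 14 held 5 or more. Most stood alone: 1871 had no other member within 5 kb, and 304 lay in 140 runs. A protein-coding promoter peak shared by both libraries was present at 59.6% (57.2 to 61.9%) of the genes that held a member, against 45.1% of all protein-coding genes. Among genes with under 10 kb of intron the shares were 43.8% (34.3 to 53.7%) of 96 and 31.4%, with 10 to 30 kb 52.1% and 51.0%, and with 30 to 100 kb 59.1% and 59.2%, while above 100 kb they were 65.7% and 59.8%. Genes with the most members were Gm20388 (48) and Fgfr2 (13), both gene models over 2 Mb that run across other genes, and 34 and 8 of their members lay in no other gene. Then came Nfic and Sfi1 with 9, Maml3 with 7, and Camta1, Sh3pxd2a, Creb3l1, Gse1, Ppm1h and Slc39a11 among those with 5 each. Maml3, a Notch co-activator gene, had heights of 2.45 to 21.8 in replicate 1 and 1.21 to 2.63 in replicate 2, and none of its 7 members held a CTCF word, even with 1 mismatch.

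Genes of muscle held members, most of them modest in height. The lists of genes were chosen with earlier results of these data known. In the 7 muscle lists together, 20 of 124 genes held a member (16.1%), with 36 sites; over all protein-coding genes the share was 7.71%. Per Mb of intron the 7 lists held 2.78 sites against 2.30 over all protein-coding genes, a smaller gap than that of the shares of genes. Nfic alone, a gene of 59.5 kb, held 9 of the 36 sites, and the density without it was not computed. The gap may therefore rest on this 1 gene. The myogenic regulators held 6.33 per Mb, the sarcomere genes 1.69 and the dystrophin complex genes 1.12. In replicate 1 the heights of the 36 sites ran from 0.340 to 16.5 with a median of 2.12, and in replicate 2 from 0.257 to 4.02 with a median of 1.16, against 2.95 and 1.43 over all members. Of the 36, 6 held an exact CTCF match and 13 a word with 1 mismatch. CAGCTG lay in 9, MCAT words in 3, and MEF2 and CArG words in 0.

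The myogenic regulators held most of these, with 7 of 20 genes and 19 sites. Besides Nfic they were Rbfox1 (a muscle and neuron splicing factor), Nfia, Mef2c, Srf, Eya4 and Tead1. The best Nfia site stood at 16.5 and 3.07 in replicates 1 and 2, in intron 2 of 10, and a second at 0.627 and 1.14. The 3 sites of Rbfox1 measured 1.03 to 3.90 in replicate 1 and 0.643 to 0.868 in replicate 2, and 2 of them held CTCF matches. The Srf site measured 6.01 and 3.43 and held CAGCTG, MCAT and SP/KLF words; Srf encodes the factor that binds CArG boxes. The sites of Mef2c measured 2.03 and 0.901, and 5.02 and 1.39 with a CTCF match, and the Tead1 site 2.11 and 1.27.

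Among 30 sarcomere genes 2 held a member, 6.67%, near the 7.71% of all protein-coding genes. The site in Acta1, skeletal muscle actin, measured 4.59 and 1.16 in intron 6 of 6, and the site in Mybpc2, fast myosin-binding protein C, 2.82 and 0.815 in intron 27 of 27. A promoter peak was shared at 8 of the 30. In excitation-contraction coupling, Cacna2d1, a calcium channel subunit gene, held 2 members, Bin1, a tubule-shaping protein gene, 2, and Casq1 1, of 15 genes. Of 15 metabolic genes, Fbp2, the muscle fructose bisphosphatase, measured 1.46 and 2.48, and Ppargc1a, a co-activator of mitochondrial genes, 0.722 and 1.04; both were taller in replicate 2. Chrnd, the acetylcholine receptor delta subunit, was the only one of 15 neuromuscular junction genes, at 2.36 and 0.257. Of 15 dystrophin complex genes 4 held members, Nos1, Capn3 and Sgcd among them. Cxcr4 was the only one of 15 satellite cell genes, at 1.83 and 1.02. The Acta1 and Nfia sites are printed as the best-ranked of their lists, on the plus strand of mm10, with the SP/KLF word in capitals in Acta1 and the forkhead and NF-Y words, in that order, in Nfia.
Acta1, chr8:123892131-123892230: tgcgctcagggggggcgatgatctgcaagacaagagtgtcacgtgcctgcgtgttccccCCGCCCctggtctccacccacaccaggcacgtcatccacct
Nfia, chr4:97868991-97869090: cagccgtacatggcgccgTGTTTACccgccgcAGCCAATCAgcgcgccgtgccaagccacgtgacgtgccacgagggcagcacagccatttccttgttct

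Circadian clock genes held members at 6 of 15, the largest share of the 19 lists, against 7.71% of all protein-coding genes. Per Mb of intron they held 10.0 sites, and the Schwann list 10.2. All their sites had a footprint in both libraries, as did 93.1% of all members. Nr1d1, the repressor Rev-erb alpha, measured 6.29 and 2.82 and lay 1153 bp from a TSS, Per1, a repressor of the clock, 4.39 and 3.96, and Cry2, its partner, 3.66 and 1.85. Hlf measured 2.70 and 1.33, Arntl (Bmal1) 2.69 and 1.25 with a CTCF match, and Per3 0.734 and 0.761 with one. Shared promoter peaks were present at 13 of the 15.

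Genes of other cells of the muscle held members at 11 of 90, 12.2%, in 6 lists, against 16.1% in the 7 muscle lists and 7.71% of all protein-coding genes. Per Mb of intron the order was reversed: these 6 lists held 17 sites over 4.25 Mb, denser than the 2.78 per Mb of the muscle lists. Median heights of the 17 sites were 3.63 in replicate 1 and 1.61 in replicate 2, above the 2.12 and 1.16 of the muscle lists. Cx3cr1, a chemokine receptor gene of macrophages, held the tallest at 20.9 and 2.18, and a second below it. Its gene model is 168 kb long, and neither site lay in an intron of its main transcript. Spi1, the macrophage factor PU.1, measured 5.76 and 2.24, and Mrc1 5.48 and 1.90. Of the 15 macrophage genes 3 held members, while 0 had a shared promoter peak. Pecam1, an endothelial adhesion gene, held 3, at 2.74 to 13.1 in replicate 1 and 1.48 to 1.78 in replicate 2, and Flt1 1. Pmp22 of myelin measured 6.99 and 5.16 with a CTCF match, and Mbp held 3. The tendon list had Mkx and Thbs4, the mural list Pdgfrb and Myh11, and the fibro-adipogenic list 0 of 15. Of the lists of cells not of muscle, neuron genes held members at 4 of 15 (Dlg4 at 15.6 and 2.61, Camk2a, Rbfox3 and Gap43), hepatocyte at 1 (Hnf4a), keratinocyte at 1 (Evpl), while immediate-early and housekeeping genes held 0. The 5 neuron sites had medians of 4.51 and 1.87 in replicates 1 and 2, and the 2 hepatocyte sites 4.98 and 1.88. The keratinocyte site measured 2.39 and 2.02. Per Mb of intron the neuron, hepatocyte and keratinocyte lists held 1.90, 6.65 and 2.60 sites. Height and density above the muscle lists were thus not particular to genes of other cells of the muscle. Of the 17 sites in the 6 lists, 8 held an exact CTCF match. Which cells the openings come from was not tested.

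Footprints, taken as counts per site, were found in both libraries at 2026 members, 93.1% (92.0 to 94.1%), with a mean of 3.53 per site in replicate 1 and 2.29 in replicate 2, and 13 members had none in either. Sites with a CTCF match had one in both at 98.7% (97.7 to 99.3%), CpG-rich sites without a match at 87.5% (82.1 to 91.5%) and the rest at 90.3% (88.5 to 91.9%). The sites were sparse on the X chromosome, at 33 or 0.822 per Mb of distal intron by the grid, against 3.84 on chromosome 11. All intronic distal peaks of replicate 1 were few there too, 647 over 4013 grid windows, against 2554 over 4712 on chromosome 11. Of the X peaks 5.10% were shared, against 7.09% on chromosome 11 and 6.08% in all.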

How the data were processed

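Open chromatin of 1 muscle was measured in 2 libraries of 1 group, called separately by the authors. The deposited peak lists hold a height per peak, a signal normalised to read depth by the authors; per the file headers each list derives from the alignments of its own library on mm10, with no pooling. The deposited footprint lists hold a score of 0.01 for every footprint, so they could not be ranked. Not given in the sources used here were the aligner, the callers of peaks and footprints and their thresholds; read totals were not used. The list with fewer peaks was used in each library.

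Peaks were classed with GENCODE M21, the host being the shortest gene around the midpoint. Motifs were matched on both strands of the GRCm38.p6 sequence in the central 150 bp. The members, gene lists and motifs were chosen with earlier results of these data known. Named genes were the 12 with the most sites and up to 3 per list; named sites were the 10 best by summed height rank and the 3 farthest from a TSS; sequences were the best-ranked sites of a motif or list. Chosen after values were seen were 3 further CTCF sequences and the 2 with 1 mismatch, the 1-mismatch search, groups of sites, copy counts, RefSeq starts, and the sites tallest in each library (Gphn, Jarid2 and Gm10722 among them) and the other list genes named. No test was run, as 1 group of 2 libraries allows none. Tools were numpy 2.4.6, matplotlib 3.10.9, pandas 2.3.3 and scipy 1.17.1 under Python 3.11.15, and the overlap and motif code was tested on simulated data. Some genes that the rule names are not reported here.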

Additional observations from a re-analysis of the deposited data

How the results depend on the processing

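No paired analysis was possible because there is 1 group, so no comparison between groups exists to block by replicate number. Over 89 alternatives, 57 kept their value within the 95% Wilson interval of the main setting or, for the count, within 1.5 times. That interval covers counting error only and not the difference between the libraries. The number of sites, 2175, became 5386 with the longer deposited lists and 1184 with the tallest 26804 peaks per library; with a single library (without replicate 1 or 2) it was 3227 to 35801. The first-intron share, 26.0%, was 23.1% with at least 50% of both peaks overlapped, 30.4% with the longer lists, 23.9% with the tallest peaks, 22.1% with a limit of 2 kb, and 29.3 to 30.3% with a single library. Against the 25.3% of the grid, which was not recomputed, it is therefore above in some settings and below in others. The CTCF share, 36.5%, was 41.9%, 25.4% and 40.8% under the first 3 of these and 9.48 to 23.5% with a single library. The AP-1 share, 2.57%, was 3.47% with the longer lists, 1.86% with the tallest peaks, 1.75% in the central 100 bp and 2.94% with either library alone. The share with footprints in both, 93.1%, was 90.9% with any overlap, 96.1% with at least 50% of both, 75.1% with the longer lists, 97.1% with the tallest, 90.8% with the peaks of replicate 2, 94.8% at 2 kb, and 11 to 65.0% with a single library. The share of genes holding a site, 7.71%, was 6.18% with at least 50% of both, 15.0% with the longer lists, 4.50% with the tallest, 6.72% at 2 kb, 7.28% with starts of every gene, and 9.26 to 36.0% with a single library. The cause of these shifts was not tested, except that the longer lists and single libraries hold more peaks by construction. Leaving out gene models over 2 Mb (2130 sites) or multi-copy sites (2145), both chosen after seeing the data, moved no result.

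Members need a peak in replicate 2, whose list is shorter; the part of depth in this was not tested. An absent motif means only that its letters are not in these windows.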
